A study of Mus musculus with 2 samples.

Results

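The replication-dependent histone genes were examined in ureters of mouse embryos at E18.5 (E, embryonic day) that lacked Pparg in part of their cells. Members were the genes on the array whose design name begins with Hist1h, Hist2h, Hist3h or Hist4h, and they were grouped by that name into the classes H1, H2a, H2b, H3 and H4. They comprised 49 of 29923 genes measured, on 55 of 39429 probes and 220 of 157716 non-control spots per array. The classes held 6 H1, 14 H2a, 12 H2b, 8 H3 and 9 H4 genes. By the positions of the array design, 37 genes lay on chromosome 13, 8 on chromosome 3, 3 on chromosome 11 and 1 on chromosome 6. Of the 49 genes, 47 had a probe well above background in at least 1 of the pools of each array and were tested. Hist2h2ab and the pseudogene Hist3h2bb-ps were not, with processed signals of at most 1.73 and 3.47 in any pool.

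Pparg encodes a nuclear receptor that is needed for differentiation of the urothelium, the epithelium that lines the ureter. All embryos were of the outbred NMRI strain. Pparg-cKO embryos had the genotype Pax2-cre/+; Pparg(fl/fl), and controls were littermates without cre that carried Pparg(fl/?). The second allele of the controls is not named in the labels, and by the matings used it was floxed or wild type. Pax2-cre is active in the nephric duct and the epithelia derived from it, so the mesenchymal cells of the dissected ureter keep their floxed alleles. Each of 2 two-colour arrays compared 1 pool of Pparg-cKO ureters with 1 pool of control ureters, and replicate 1 was female and replicate 2 male. The dyes were exchanged between the arrays, so that sex, dye orientation and array cannot be told apart. Each pool mixes embryos, so the p-values hold no spread between single embryos. They rest on the spread between the 2 arrays, which limma moderates towards that of all genes. Each SD given with n = 2 is that of the 2 arrays alone. In whole ureters, fewer cells that express a gene and less RNA per cell cannot be told apart.

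Replication-dependent histone genes supply the core histones H2A, H2B, H3 and H4, around which DNA is wound, and the linker histone H1, which binds where DNA enters and leaves that core. They lie in clusters, are transcribed mainly in S phase and are made in large amounts when cells copy their DNA. Their mRNAs characteristically end in a short stem-loop that is bound by SLBP, instead of a poly(A) tail. Some of these genes also give polyadenylated transcripts, mostly in differentiated cells. The RNA was amplified with a kit that primes on poly(A) tails. The share of the signal that came from transcripts with a tail was not tested.

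Probe sequences of 3 kinds bear on what was measured, and all are printed 5′ to 3′ in the sense of the mRNA with positions on mouse build mm9. Near-identical copies share their coding sequence, and the first set shows how little the probes of several H2a genes differ at the end of the coding region. Capitals mark bases that differ from the Hist1h2ak probe.
Hist1h2ak, chr13:21845304-21845363, minus strand: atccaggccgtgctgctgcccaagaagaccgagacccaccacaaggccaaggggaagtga
Hist1h2af, chr13:23626113-23626172, plus strand: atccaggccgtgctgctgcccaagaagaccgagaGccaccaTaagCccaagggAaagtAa
Hist1h2an, chr13:21902669-21902728, plus strand: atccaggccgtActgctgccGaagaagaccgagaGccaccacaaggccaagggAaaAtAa
Hist2h2aa2, chr3:96043781-96043840, minus strand: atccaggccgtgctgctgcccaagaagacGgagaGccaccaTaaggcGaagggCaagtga
The probes of Hist1h2af and Hist2h2aa2 differed from that of Hist1h2ak at 5 of 60 bases, and the probe of Hist1h2an at 6. A run of 25 or more identical bases with the probe of another member was found in 12 probes of 12 genes, 8 of them H2a, and 5 of these 8 also shared such a run with H2afj, a replication-independent H2A gene. By the design's own transcript lists, 16 probes of 15 genes matched transcripts of 2 or more RefSeq genes. The H2a values in particular are therefore uncertain as values of single genes.

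The second set shows the stem-loop, which marks the end of a mature replication-dependent histone mRNA. The pattern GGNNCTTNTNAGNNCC was searched on both strands of every probe. It was found on the probe strand of 7 of 39429 probes (0.0178%), of which 5 were histone probes, and on the other strand of 3 probes (0.00761%), none of them a histone probe. Capitals mark the pattern.
Hist1h3a, chr13:23853756-23853781, minus strand: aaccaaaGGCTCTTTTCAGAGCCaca
Hist1h3g, chr13:23627751-23627778, plus strand: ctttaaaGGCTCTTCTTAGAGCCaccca
Hist1h3i, chr13:21874784-21874811, minus strand: aacaaaaGGCTCTTTTCAGAGCCccctc
Hist1h4m, chr13:21903991-21904019, plus strand: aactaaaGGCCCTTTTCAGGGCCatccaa
Hist2h2bb, chr3:96074087-96074115, plus strand: cccaaaaGGCTCTTTTCAGAGCCacttta
These 5 probes cover the last part of the transcript and gave processed signals between 13.8 and 47.9 in the 4 pools. The probes of Hist1h2ab and Hist1h2ae ended or began within the pattern. At the other extreme, 9 probes of 9 genes began farther along their design transcript than the whole length of the gene in RefSeq assembly GRCm38.p6, among them those of Hist1h1c, Hist1h1d, Hist1h2ac, Hist3h2a and Hist3h2ba. By these positions, such probes would read transcripts that extend past the annotated end, and the presence of such transcripts was not tested. The probe of Hist1h1d had signals of at most 9.56 and was not well above background in all pools.

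The third set holds the 2 linker histone genes with the widest difference between the arrays. Capitals mark AAA and AAG, the codons for lysine, in the open frame that has most of them.
Hist1h1b, chr13:21871923-21871982, minus strand: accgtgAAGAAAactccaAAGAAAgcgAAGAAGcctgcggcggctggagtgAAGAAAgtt
Hist1h1e, chr13:23713707-23713766, minus strand: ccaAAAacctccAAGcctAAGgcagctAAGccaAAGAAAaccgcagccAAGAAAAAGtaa
Both probes lie in the lysine-rich tail of the protein, with 8 lysine codons in the probe of Hist1h1b and 9 in that of Hist1h1e. The longest run that either shared with the probe of another member was 9 and 12 bases. The probe of Hist1h1e held 29 A among 60 bases, the highest number of all histone probes (median 17), and that of Hist1h1b held 23.

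The median spot signal was 294.8 to 323.9 in red and 292.6 to 333.9 in green, and 0 spots were saturated. Ratios are log2 values of Pparg-cKO over control. Their sign follows the deposited table, and this direction is opposite to the dye labels on both arrays. The deposited direction is the likely one, as the legends of the study use it also for genes stained on sections, and the dye labels themselves were not resolved. Should those labels be right, all signs are exchanged and the sizes stay. In the deposited direction the Pparg probe itself gave 12357 in Pparg-cKO and 6113 in control females, and 12930 and 6688 in males, which is a mean log2 ratio of 0.97 (SE 0.10, n = 2, limma adjusted p = 0.0373). This probe begins at base 1562 of its transcript. Exon structure was not analysed here, and whether the probe lies in the deleted part was not tested, so that it was not used to check the genotype.

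None of the 47 histone genes tested met a rule adapted from that of the study for a difference between Pparg-cKO and control ureters. It asked for a change of at least 1.5-fold in the same direction on both arrays. The brighter channel also had to reach a processed signal of 100 on each array. The study states a threshold of 100 without naming the channel. Of all 22499 genes tested, 258 (1.15%) met this rule. In limma, 0 of 47 had an adjusted p under 0.05, against 169 (0.751%) of all genes, and 0 had an unadjusted p under 0.05, against 1914 (8.51%). The lowest adjusted p of a histone gene was 0.596 (Hist1h1e), and only 26 of the 47 were bright enough on both arrays to be able to meet the fold rule. On 1 array alone, 1 histone gene passed 1.5-fold at that brightness on the female array (1.97% of all genes) and 2 on the male array (5.57%). These were Hist1h1b on both and Hist1h1e on the male array. The 45 other genes stayed within 1.40-fold on either array, with log2 ratios from -0.20 to 0.23 in females and from -0.49 to 0.23 in males. The background correction used an offset of 50, which by construction draws the ratios of dim genes towards 0, and the same 2 genes passed without the offset. With scanner-processed signals, and at any brightness, 8 of 47 histone genes passed 1.5-fold on either array, against 15.3% of all genes. Besides Hist1h1b and Hist1h1e these were Hist1h1d in females and Hist1h1a, Hist1h1t, Hist1h2ab, Hist1h2bp and Hist1h4c in males. The plot of signals by pool shows for each gene how close the 4 pools lay.

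**Figure D1:**
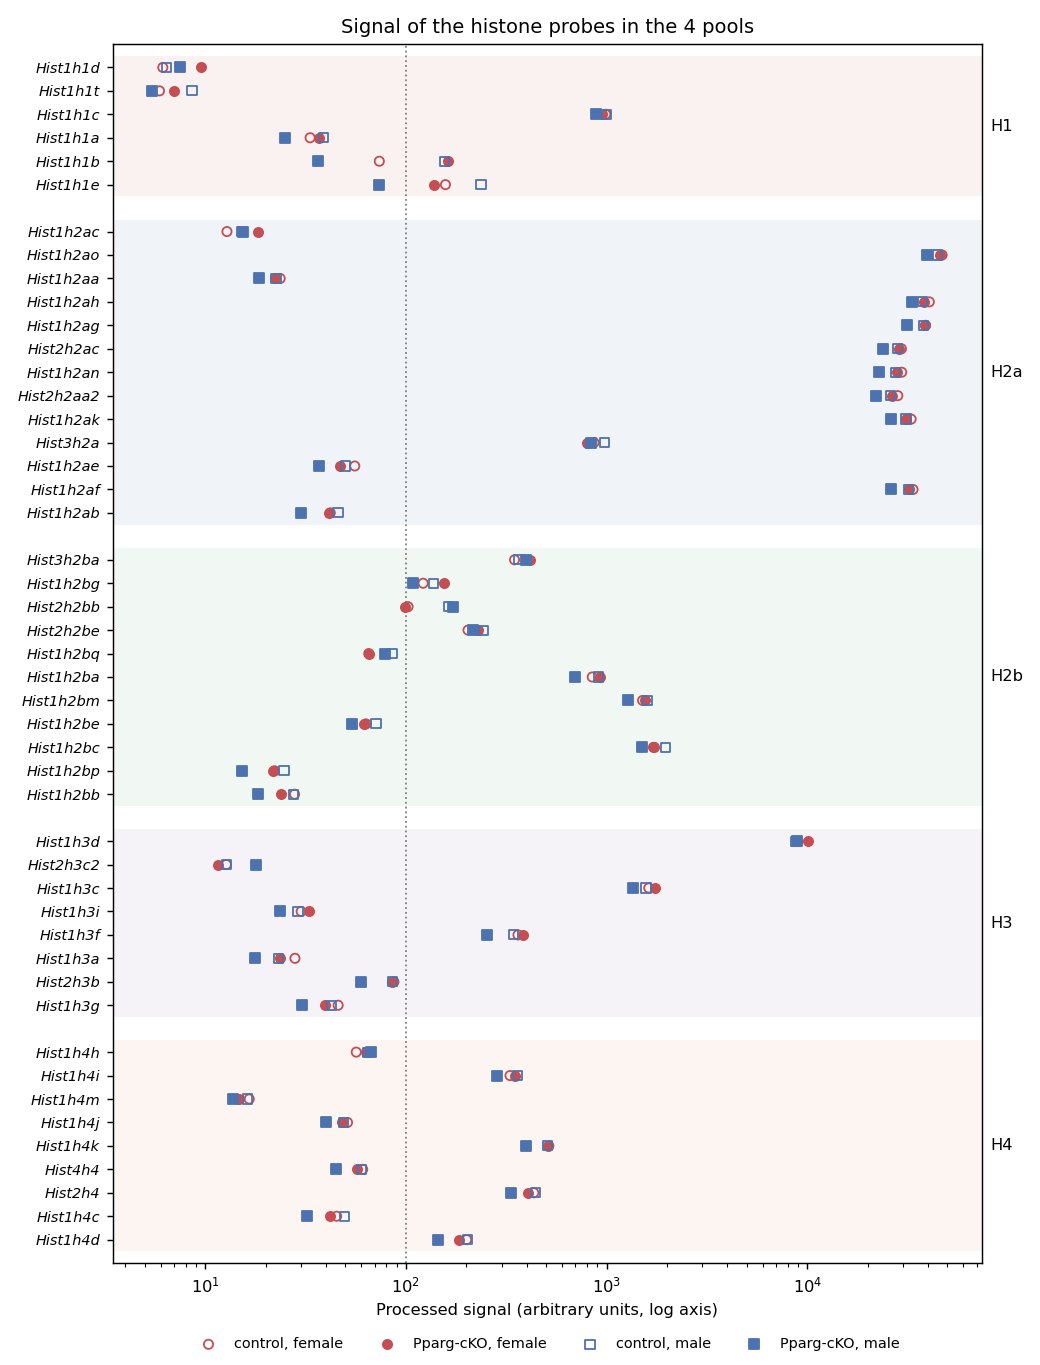
Processed signal (arbitrary units, log axis) of the probe that stands for each of the 47 histone genes tested, in the female (red circles) and male (blue squares) pools, with Pparg-cKO filled and control open; the dotted line marks a signal of 100. The 4 pools of a gene lie close together for most genes, and those of Hist1h1b and Hist1h1e are spread, with signals of 36.6 to 162 and 73.2 to 237.

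Although no gene passed, the ratios of the 2 arrays were placed differently. On the female array the median log2 ratio of the 47 genes was 0.0087 and 22 lay below 0, where 51.8% of all genes did. On the male array the median was -0.27 and 40 of 47 (85.1%) lay below 0, against 47.7% of all genes and a median of 0.01 over them. Both arrays gave a ratio below 0 for 20 genes, against 26.2% of all genes, and the male ratio was below the female one for 41 of 47 (87.2%), against 44.8%. With signs by the dye labels, 7 of 47 lay below 0 in males, against 52.3% of all genes, and the male ratio was below the female one for 6 of 47. Averaged over the arrays, the median of the histone genes was -0.13 and that of all genes 0.0094. The male median of the histone genes was -0.12 when the arrays were centred on their median in place of the loess correction, and that of all genes was then 0.10. The genes share pools, probes' sequence and array, so these counts describe 2 arrays and carry no test. In the deposited direction the male Pparg-cKO pool was in the green channel and the female one in the red, and the dye labels give the reverse. Whether sex, dye or array goes with the difference cannot be told apart.

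**Figure D2:**
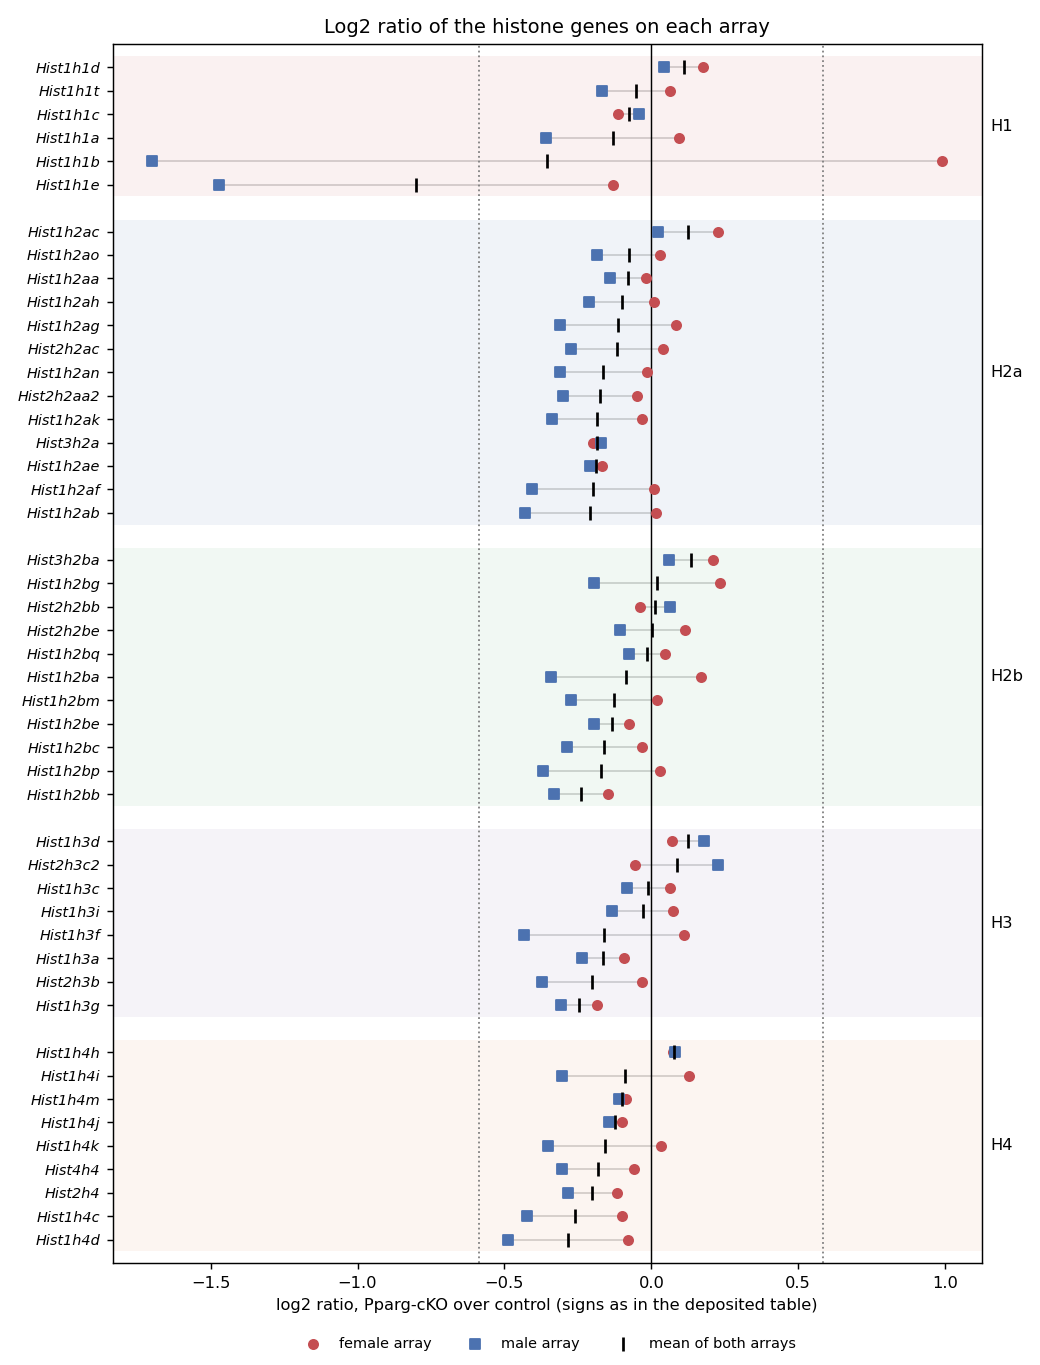
Log2 ratio of Pparg-cKO over control (signs as in the deposited table) for the 47 histone genes tested, by class, on the female array (red circles) and the male array (blue squares), with the mean of both as a black bar; dotted lines mark 1.5-fold. The male value lies left of the female one for 41 genes, and both values of Hist1h1b and the male value of Hist1h1e lie past the dotted lines.

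Among the H1 genes, which encode linker histones, Hist1h1b and Hist1h1e differed between the arrays by more than any other member. Hist1h1b gave a processed signal of 162 in Pparg-cKO and 73.8 in control on the female array, and of 36.6 in Pparg-cKO and 155 in control on the male array. The Pparg-cKO pool was thus the higher of the pair in females and the lower in males, and the channel with the higher signal was red on both arrays. The female pair gave a log2 ratio of 0.99 and the male pair -1.70, which average -0.35 ± 1.90 (SD, n = 2, limma adjusted p = 0.957). It was the 1 histone gene with a change of at least 1.2-fold on each array in opposite directions, which was found for 1.38% of all genes. The 4 spots of this probe on the female array lay between 0.88 and 1.07, and the 3 spots kept on the male array between -1.82 and -1.54, so that the spots of 1 array were close to each other.

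Hist1h1e gave 139 in Pparg-cKO and 158 in control females, and 73.2 in Pparg-cKO and 237 in control males. The male pools differed and the female pools were close. The female pair gave a log2 ratio of -0.13 and the male pair -1.47, which average -0.80 ± 0.95 (SD, n = 2, 1.74-fold, adjusted p = 0.596). Its spots ranged from -0.22 to 0.03 and from -1.50 to -1.44. Hist1h1c gave 945 and 990 in the female pools and 890 and 998 in the male pools, Pparg-cKO first, with log2 ratios of -0.11 and -0.04. Hist1h1a (0.10 and -0.36) and Hist1h1d (0.18 and 0.04) had signals of at most 38.9 and 9.56 in any pool. Hist1h1t, the linker histone of the testis, had signals of at most 8.61. Over the 6 H1 genes the female median was 0.08 and the male median -0.26, and adjusted p-values ran from 0.596 to 0.971. The male median was -0.50 with the deposited table, -0.64 with scanner-processed signals, -0.39 with normexp without offset and -0.91 over the 4 genes well above background in both channels.

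**Figure D3:**
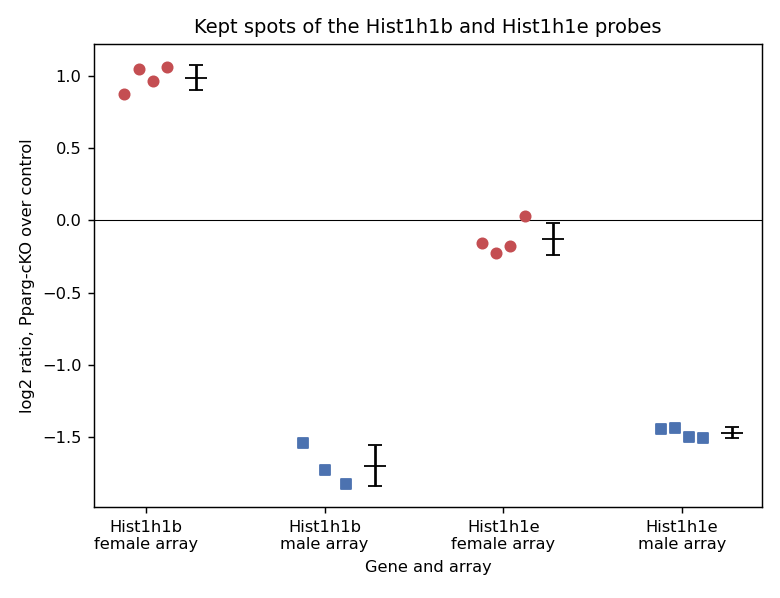
Log2 ratio of each kept spot of the Hist1h1b and Hist1h1e probes on the female (red circles) and male (blue squares) array, with the mean and SD over spots as black bars. The spots of each array lie within 0.28 of each other, and the arrays lie apart by 2.69 for Hist1h1b and by 1.34 for Hist1h1e.

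The H2a genes encode a core histone that pairs with H2B. Of the 13 tested, 8 were read by probes with a run of 25 or more bases in common with another member's probe, and 4 of these probes are printed above. These were Hist1h2af, Hist1h2ag, Hist1h2ah, Hist1h2ak, Hist1h2an, Hist1h2ao, Hist2h2aa2 and Hist2h2ac. Their processed signals lay between 21902 and 47003 in all pools. Hist1h2ao gave 46149 in Pparg-cKO and 47003 in control females, and 39519 and 44661 in males. Hist1h2ag gave 38547 and 38872 in females, and 31464 and 37844 in males. In both genes the male Pparg-cKO pool was the lowest of the 4 pools and the other 3 pools were close to each other. The same order of the male pair was found for all 8, with log2 ratios of -0.41 to -0.18 in males and of -0.05 to 0.09 in females. Hist1h2af had 0.0077 and -0.41, Hist1h2ag 0.09 and -0.31, Hist1h2ah 0.0087 and -0.21, and Hist1h2ao 0.03 and -0.18, the female array first. Since each of these probes shares a run of 29 to 42 bases with another, the 8 values are not independent of each other.

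The other H2a genes had probes of their own. Hist1h2ab had the lowest mean log2 ratio of the class, with 0.01 in females and -0.43 in males and signals of 41.6, 42.0, 30.0 and 45.9 in Pparg-cKO female, control female, Pparg-cKO male and control male pools. Hist1h2ac had the highest, with 0.23 and 0.02. Hist3h2a, on chromosome 11, had log2 ratios of -0.20 and -0.17, which differed by less than the median spread of spots within a probe (SD 0.09 in females and 0.11 in males). Hist1h2ae had -0.17 and -0.21. Over the class the female median was 0.0077 and the male median -0.27, and adjusted p-values ran from 0.724 to 0.943. With median centring these medians were 0.21 and -0.67.

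The H2b genes, whose product pairs with H2A, had a female median of 0.03 and a male median of -0.20, and 9 of 11 lay below 0 in males. With median centring these medians were -0.0025 and -0.034, and 6 of 11 lay below 0 in males. The male median was -0.32 with scanner-processed signals and with the deposited table. Hist1h2bc gave 1716 in Pparg-cKO and 1713 in control females, and 1508 and 1976 in males, with log2 ratios of -0.03 and -0.29. Hist1h2bm gave 1551 and 1512 in females, and 1280 and 1597 in males, with log2 ratios of 0.02 and -0.27. In both genes the female pools were close and the male Pparg-cKO pool was the lowest. Hist1h2ba, an H2B gene known from the testis, gave 928 and 849 in females, and 694 and 913 in males, with log2 ratios of 0.17 and -0.34. Hist1h2bb had the lowest mean of the class (-0.15 and -0.33) and Hist3h2ba the highest (0.21 and 0.06). Hist3h2ba was 1 of 2 H2b genes above 0 on the male array, and signals were 416 and 348 in females and 396 and 366 in males. Adjusted p-values of the class ran from 0.664 to 0.998.

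For H3, which carries much of the modification that marks active and silent chromatin, the female median was 0.015 and the male median -0.19. The male median was -0.11 with median centring, -0.34 with scanner-processed signals and -0.39 with the deposited table. Hist1h3d gave 10098 in Pparg-cKO and 8989 in control females, and 8934 and 8709 in males. It was the gene with the highest mean of the class, with log2 ratios of 0.07 and 0.18, so that both Pparg-cKO pools were above their controls. Hist1h3c gave 1752 and 1624 in females, and 1348 and 1573 in males, with log2 ratios of 0.06 and -0.08. Hist1h3f gave 384 and 362 in females, and 253 and 345 in males, with log2 ratios of 0.11 and -0.43. The probes of Hist1h3c and Hist1h3f shared a run of 36 bases. Hist1h3g had the lowest mean (-0.19 and -0.31), and Hist2h3b, on chromosome 3, had -0.03 and -0.37. Adjusted p-values ran from 0.641 to 0.995.

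The H4 genes, the core partners of H3, had medians of -0.08 in females and -0.30 in males, and 8 of 9 lay below 0 on the male array. With median centring these medians were -0.10 and -0.076, so that the male one was no longer the lower. Hist1h4d gave 184 in Pparg-cKO and 201 in control females, and 145 and 204 in males, with log2 ratios of -0.08 and -0.49 and a mean of -0.28 ± 0.29 (SD, n = 2, adjusted p = 0.683). Hist1h4k gave 512 and 516 in females, and 396 and 509 in males, with log2 ratios of 0.03 and -0.35. Hist2h4 gave 404 and 434 in females, and 335 and 441 in males, with log2 ratios of -0.12 and -0.28. In these 3 genes the male Pparg-cKO pool was again the lowest of the 4. Hist1h4i had log2 ratios of 0.13 and -0.30. Hist1h4h was the 1 gene of the class above 0 on both arrays, with 0.07 and 0.08 and signals between 56.6 and 67.4. The single genes were 1.06-fold to 1.22-fold changed on average, with adjusted p-values of 0.679 to 0.948.

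Second probes were printed for 6 genes, and they gave the same sign as the first on the male array for 5 of them. On the female array the sign was the same for 3 and differed for Hist2h2bb (-0.04 and 0.05), Hist1h4i (0.13 and -0.01) and Hist1h4k (0.03 and -0.10). For Hist1h4d the male log2 ratios of the 2 probes were -0.49 and -0.26, for Hist1h4i -0.30 and -0.22, for Hist1h4k -0.35 and -0.22 and for Hist2h4 -0.28 and -0.18. The brighter Hist1h2ak probe, which is printed above, had -0.34 and the other, which begins near the start of the transcript, had -0.17. For Hist2h2bb the probe that holds the stem-loop had -0.13 and the probe farther downstream 0.06. The other probe of Hist2h4 had signals of at most 11.7.

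Probes that began within and beyond the length of the RefSeq gene were placed differently on the male array. The 44 probes tested that began within that length had a median of -0.28 there, and 42 of them lay below 0. The 9 probes that began beyond it had a median of 0.02, and 4 lay below 0. On the female array the medians were -0.0039 and -0.010. The 5 probes with a whole stem-loop had a median of -0.09 in females and of -0.13 in males, and all 5 lay below 0 in males. This division was made after the values were known and carries no test. It does not order the probes by position, as the RefSeq lengths vary. The probes of Hist1h2be, Hist1h2bq and Hist2h2be began at bases 2375, 1935 and 1849. They counted as within the gene, at lengths of 37455, 3788 and 2667.

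Brightness was compared as well. On the male array the median log2 ratio of histone genes was -0.19 at a mean processed signal under 100 (21 genes), -0.28 from 100 to 10000 (18 genes) and -0.31 over 10000 (8 genes). For all genes tested it was 0.0086, 0.02 and -0.02 in these ranges. When the arrays were centred on their median in place of the intensity-dependent loess correction, the median of the 8 bright H2a genes was -0.70 and that of all 1044 genes over 10000 was -0.36. In that setting 10 histone genes passed 1.5-fold on the male array, the 8 H2a genes with Hist1h1b and Hist1h1e, against 11% of all genes and 11.8% of those over 10000. There 35 of 47 lay below 0, against 37.2% of all genes. In the other settings with signs as in the deposited table, 40 or 41 of 47, 39 of 45 and 41 of 49 histone genes lay below 0 in males.

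**Figure D4:**
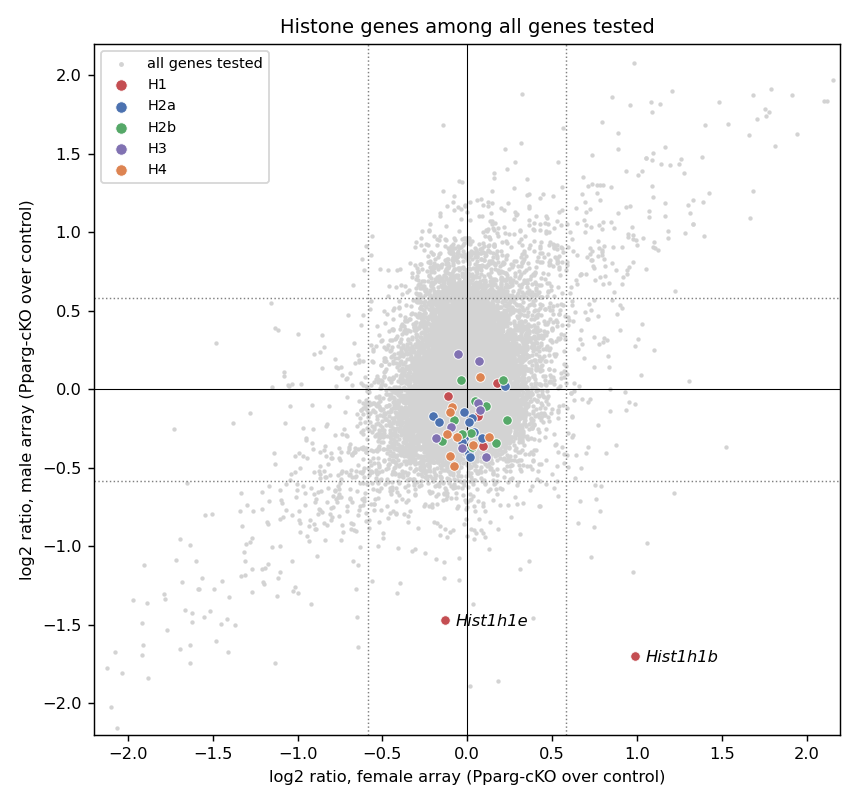
Log2 ratio on the male array against the female array for all genes tested (grey) and for the histone genes by class (colours), with dotted lines at 1.5-fold; 38 of 22499 genes lie outside the axes, none of them a histone gene. Most histone genes form a narrow group near 0 on the female array and below 0 on the male array, and Hist1h1e and Hist1h1b lie far below it.

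Genes that work with the replication-dependent histones were set beside them. No gene of the following lists met the fold rule or had an adjusted p under 0.05. The replication-independent histone genes are for the most part, but not strictly, expressed also outside S phase and from polyadenylated mRNAs. They had 15 of 16 members tested and medians of -0.0041 in females and 0.16 in males. In males, 4 of 15 lay below 0. H2afx, whose protein is phosphorylated at DNA breaks, had 0.0076 and 0.60, with signals of 1928 and 1922 in females and 2770 and 1867 in males (adjusted p = 0.725). H2afz had -0.28 and -0.11, H3f3a -0.01 and 0.35, and H3f3b 0.35 and -0.02. H1f0, a linker histone of resting cells, had -0.30 and 0.20, and Cenpa, the H3 of centromeres, had -0.10 and 0.14.

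Factors of histone gene transcription and of 3′ end processing had 26 of 27 members tested and medians of 0.03 and -0.0028. Slbp, which binds the stem-loop, gave 3542 in Pparg-cKO and 3319 in control females, and 3360 and 3418 in males, with log2 ratios of 0.03 and -0.03, so that its 4 pools were close to each other. Npat, the coactivator of histone genes in S phase, had -0.27 and -0.07 at signals of at most 9.19. Casp8ap2, a component of histone locus bodies, had 0.24 and -0.14. Of the U7 snRNP proteins, Lsm10 had -0.22 and -0.30 with a mean of -0.26 ± 0.05 (SD, n = 2, adjusted p = 0.606), and Lsm11 had -0.19 and -0.0037. Histone chaperones had 22 of 23 members tested and medians of 0.02 and 0.04.

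Genes of S phase and DNA replication (37 of 37 tested) had medians of 0.10 in females and 0.0054 in males, and 18 lay below 0 in males. Pcna, the sliding clamp of DNA polymerases, gave 10500 and 10109 in females and 9681 and 9929 in males, with log2 ratios of 0.02 and 0.0054. Ccne2, a cyclin of the G1/S transition, had 0.30 and -0.20. Genes of G2/M and mitosis (20 of 20 tested) had medians of 0.05 and -0.04, with 12 below 0 on the male array, and Mki67, a marker of cycling cells, had 0.08 and 0.21. The male ratio was below the female one for 25 of 37 genes of DNA replication and 11 of 20 of mitosis, beside 41 of 47 replication-dependent and 3 of 15 replication-independent histone genes.

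**Figure D5:**
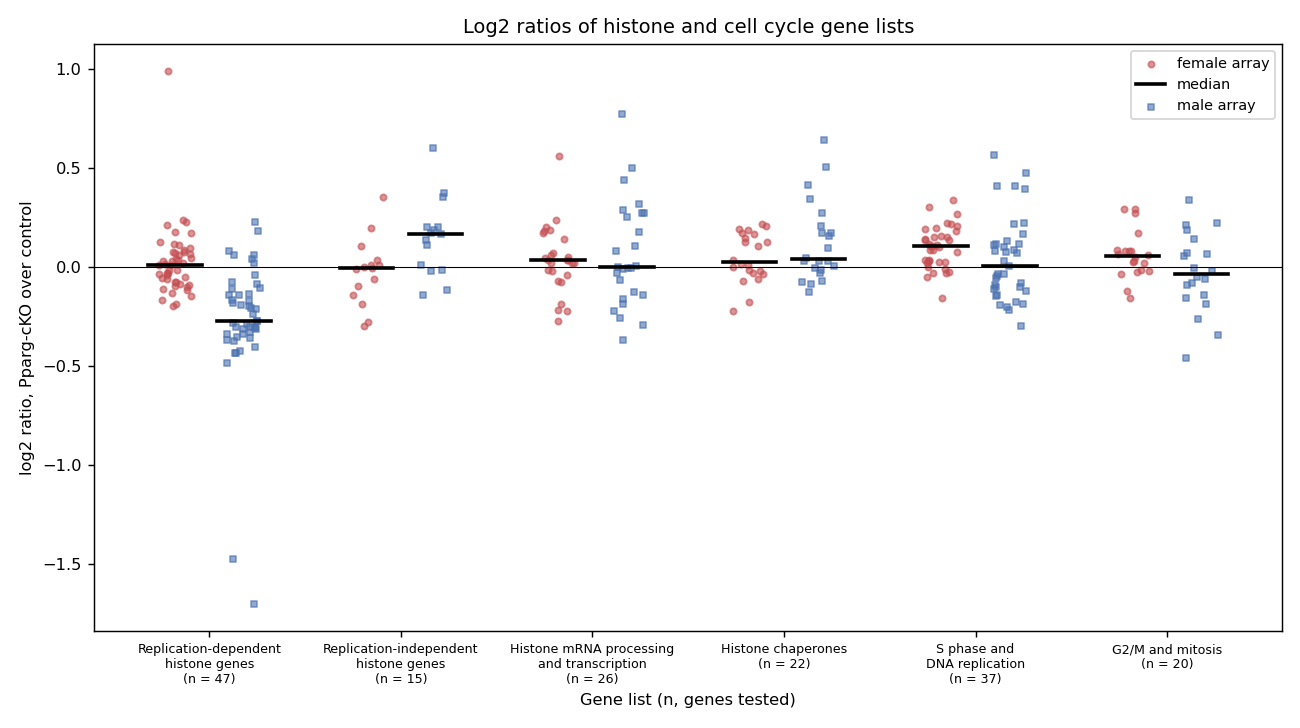
Log2 ratio of Pparg-cKO over control for the tested members of 6 gene lists on the female (red circles) and male (blue squares) array, each point a gene and each black bar the median. The male median of the replication-dependent histone genes is -0.27 and that of the replication-independent ones 0.16, and the medians of the other lists lie between -0.04 and 0.10.

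Markers of the ureter and of other cells were read in the same pools. Urothelial markers (12 genes) were present, with medians of -0.45 in females and -0.06 in males, and Upk1a and Upk1b met the fold rule with mean log2 ratios of -1.51 and -1.02, as did Krt19 with 1.00, at limma adjusted p-values of 0.0685, 0.109 and 0.121. Markers of mesenchyme and smooth muscle (9 genes), erythroid cells (9), leukocytes (9) and endothelium (5) had 0 members past the fold rule and medians between -0.18 and 0.11 in females and between -0.08 and 0.05 in males. Of the 9 mesenchyme and smooth muscle genes, 5 lay below 0 in males. Col1a1, a collagen gene of mesenchyme, had 0.14 in females and 1.07 in males, the highest male value of these. Acta2, an actin of smooth muscle, had 0.11 in females and -0.52 in males, the lowest. Of the kidney markers, 5 of 8 were tested, all 5 lay below 0 on the male array, and their summed signal was 146 in Pparg-cKO and 151 in control females, and 97.9 and 183 in males. Lrp2 made up most of it, with log2 ratios of -0.13 and -0.89, and Umod, Slc12a1 and Slc12a3 were not well above background. Of the germ cell markers, Prm1 alone met the fold rule, with a mean log2 ratio of 3.73 (adjusted p = 0.00620), and Prm2 and Tnp1 had signals of at most 15.1 and 7.91. The part of the urothelial, mesenchymal, kidney and germ cell signals in the histone values was not tested.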

How the data were processed

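Total RNA (200 ng) of each pool was amplified in a single T7 round and labelled with AlexaFluor555 or AlexaFluor647. Per the file headers, the deposited scanner files (Agilent Feature Extraction 10.7.3.1, design build mm9) hold linear spot intensity, a processed signal and a log10 ratio of red over green. The authors' deposited value table holds a signed fold change per probe. Both arrays lay on 1 slide. Mean signal and median background were corrected with normexp (offset 50), followed by loess within arrays (limma 3.58.1, R 4.3.3), with control spots at weight 0 and outlier spots left out. The 4 spots of a probe were averaged, and the brightest probe stood for a gene. Processed signals are means over kept spots. Genes entered the tests where their probe exceeded background clearly in 1 or more channels of each array. limma tested the mean of 2 turned log2 ratios, two-sided, Benjamini-Hochberg adjusted over 22499 genes, with 1 residual degree of freedom per gene. Variances were moderated with a prior of 4.00 degrees of freedom fitted over all genes. The pipeline was tested on simulated data. The number of arrays limits the precision. The deposited table correlated with the red over green ratio at r = 0.997 on replicate 1 and r = -0.998 on replicate 2 across bright probes, and signs follow it.

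The members, lists and alternatives were chosen with earlier results of these data known. Genes were named by a rule: up to 4 of the brightest genes per class, the highest and lowest mean per class, genes past either threshold, genes changed at least 1.2-fold in opposite directions, and set members of the lists. RefSeq tables matched 49 of 49 genes by transcript or symbol. Current symbols differ, and names are those of the design.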

Additional observations from a re-analysis of the deposited data

Results flagged for a closer look

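Hist1h1b, a linker histone gene, had opposite signs in the 2 sexes. Its log2 ratio on the male array minus that on the female array was -2.69, with 0.99 in the female and -1.70 in the male pair. There was 1 array per sex, so the difference was not tested, and sex, dye orientation and array cannot be told apart. The red channel was the brighter on both arrays.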

How the results depend on the processing

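No histone gene passed the fold rule or had an adjusted p under 0.05 in limma under any of 8 alternative settings of signal, normalisation, filter, probe summary or sign, and 0 passed a 2-fold threshold. Over all genes the fold rule was met by 217 to 291 in these settings, and limma called 0 with the deposited table, where no member could be called, and 94 to 571 in the others. The lowest adjusted p over these settings was 0.163 (Hist1h1e, normexp without offset). With 1 array left out, 1 to 2 genes passed 1.5-fold, Hist1h1b on either array and Hist1h1e on the male array. The median over the histone genes ran from -0.27 to 0.0087 with 1 array left out, for H1 from -0.26 to 0.08, for H2a from -0.27 to 0.0077, for H2b from -0.20 to 0.03, for H3 from -0.19 to 0.015 and for H4 from -0.30 to -0.08. With scanner-processed signals and with the deposited table the male ratio was below the female one for 45 of 47 genes, with median centring for 33 and with signs by the dye labels for 6. Class medians on the male array moved by over 1.5 times with median centring (H2a, H2b, H3 and H4) and with other signals or filters (H1, H2b and H3), and the cause was not tested.

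With signs by the dye labels the medians were 0.13 for all histone genes, 0.16 for H2a, 0.085 for H2b, 0.10 for H3 and 0.16 for H4. By construction each gene's sign was exchanged too, to 0.13 for Hist1h1a, 0.35 for Hist1h1b, 0.078 for Hist1h1c, -0.11 for Hist1h1d, 0.80 for Hist1h1e, 0.21 for Hist1h2ab, -0.12 for Hist1h2ac, 0.20 for Hist1h2af, 0.11 for Hist1h2ag, 0.10 for Hist1h2ah, 0.077 for Hist1h2ao, 0.085 for Hist1h2ba, 0.24 for Hist1h2bb, 0.16 for Hist1h2bc, 0.13 for Hist1h2bm, 0.011 for Hist1h3c, -0.12 for Hist1h3d, 0.16 for Hist1h3f, 0.25 for Hist1h3g, 0.28 for Hist1h4d, -0.078 for Hist1h4h, 0.088 for Hist1h4i, 0.16 for Hist1h4k, 0.20 for Hist2h3b, 0.20 for Hist2h4 and -0.14 for Hist3h2ba. Under median centring Hist1h1c had 0.0013, Hist1h3c 0.050 and Hist1h4i 0.012, and the cause was not tested. Dim probes limit the precision: 21 of the 47 genes had too little signal to meet the fold rule.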
